A study of Mus musculus with 48 samples.

Results

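The 10 genes of polyamine synthesis and its control, Odc1, Oaz1, Oaz2, Azin1, Amd1, Srm, Sms, Sat1, Smox and Paox, were followed through ribosome profiling of mouse livers in which β-catenin, MYC or both had been activated. They were chosen by gene symbol from the known pathway, and all 10 were found among the 16269 genes with an RPF transcript and the 20622 genes of the RNA tables. By the sample labels these were male mice aged 2–4 months, and they received AAV8.TBG.Cre, a virus that expresses Cre recombinase from the hepatocyte-specific TBG promoter, and their livers were taken 4 or 10 days later. The 4 genotypes were Wild-type (WT), Ctnnb1ex3/+ (B, a Cre-activated stabilised β-catenin allele), R26-LSL-MYC (M, MYC expressed from the Rosa26 locus after Cre removes a stop cassette) and Ctnnb1ex3/+; R26-LSL-MYC (BM), and the WT mice received the virus too. Each genotype and day had 3 mice, so that 24 mice gave 48 libraries: ribosome-protected fragments (RPFs), which count ribosomes on a coding sequence, and cytoplasmic RNA from the same lysate. The study asked whether these alleles change which mRNAs are translated, and translation efficiency (TE) is the RPF level divided by the RNA level of the same gene.

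Polyamines (putrescine, spermidine and spermine) are small cations that growing cells need for nucleic acid and protein synthesis. Ornithine decarboxylase (Odc1) makes putrescine, S-adenosylmethionine decarboxylase (Amd1) supplies the aminopropyl donor, and the spermidine and spermine synthases (Srm and Sms) add aminopropyl groups. Antizymes (Oaz1 and Oaz2) bind ornithine decarboxylase and send it to the proteasome, and the antizyme inhibitor (Azin1) holds antizyme off. Spermidine/spermine acetyltransferase (Sat1), polyamine oxidase (Paox) and spermine oxidase (Smox) break polyamines down. Odc1 is a textbook target gene of MYC. Several of these mRNAs are also known for translational control: high polyamines favour the frameshift that antizyme synthesis needs and the translation of Sat1, and lower the translation of Odc1, Amd1 and Azin1.

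Values below are CPM (counts scaled to library size with TMM factors), in the order mouse 1, 2 and 3 of a group. RPFs and RNA were scaled separately, so each change in RPFs, RNA or TE is relative to the bulk of genes. A change shared by all genes cannot be seen on this scale. The paper reports a global reduction of ribosome occupancy in BM livers at the later time point. Absolute ribosome numbers per mRNA were not measured here. Log2 changes carry the standard error of an edgeR quasi-likelihood fit over all genes (n = 3 mice per group), and a gene was called where its Benjamini-Hochberg adjusted p was under 0.1, the threshold that the study used for TE. RPF libraries held 9742197 to 14380713 counts and RNA libraries 3254141 to 6540116. The labels were checked with the β-catenin target Axin2, whose RPFs were 2.85 to 3.52 CPM in WT and 18.2 to 27.1 CPM in B at day 4, and with Myc, whose assigned RPFs were 2.43 to 18.3 CPM in WT and 57.5 to 62.1 CPM in M. RNA assigned to Myc did not separate them as clearly, with 26.6 to 29.3 CPM in WT and 28.9 to 34.9 CPM in M at day 4 and 22.1 to 43.7 CPM in WT and 20.8 to 26.6 CPM in M at day 10. BM mouse 1 of day 10 stood apart from its group: its log2 values differed from the other mice of the group with an SD of 0.775 over RPFs, the highest of the 24 mice. Axin2 RPFs of BM at day 10 were 26.7, 10.5 and 6.20 CPM and Myc RPFs were 58.0, 121 and 164 CPM, so mouse 1 had the highest Axin2 and the lowest Myc. Axin2 RPFs of B at day 10 were 20.7, 26.2 and 18.5 CPM, and Myc RPFs of M at day 10 were 43.6, 47.2 and 57.4 CPM. Mouse 1 lay just above these ranges, whereas mice 2 and 3 lay below all B mice in Axin2 and above all M mice in Myc. Which of the BM mice is typical of the genotype was not tested. Changes of the members against WT in BM at day 10 are therefore mostly given with and without mouse 1, where either fit called them. Only some of the differences between the days are given both ways.

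These were whole-liver lysates, in which fewer cells of a type and less RNA per cell cannot be told apart. The 5 hepatocyte markers Alb, Apoa1, Ttr, Hnf4a and Cps1 were present in every group, but their summed RNA was 83127 to 84082 CPM in WT at day 10 and, in the mutant livers of that day, 36309 to 44502 CPM (M), 28927 to 34164 CPM (B) and 28717 to 36393 CPM (BM). At day 4 it was 76255 to 86733 CPM in WT and 28918 to 36577 CPM in BM. The summed RNA of 5 Kupffer cell markers was 191 to 229 CPM in WT and 82.7 to 104 CPM in BM at day 4, and 190 to 225 CPM in WT and 235 to 291 CPM in BM at day 10, with none of them at 0. The part of these shifts in the results below was not tested.

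The genes lie apart in the genome (GRCm39). Of the enzymes of synthesis, Odc1 lies at chr12:17594383-17601507, Amd1 at chr10:40162797-40178185, Srm at chr4:148675940-148681792 and Sms at chrX:156226848-156275317. Of the regulators, Oaz1 lies at chr10:80662516-80665124, Oaz2 at chr9:65575283-65597582 and Azin1 at chr15:38487539-38519785, and of the enzymes of breakdown, Sat1 lies at chrX:153996128-153999452, Paox at chr7:139695712-139717169 and Smox at chr2:131333416-131368431. Sms and Sat1 are both on the X chromosome.

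Both antizyme mRNAs are read in a pair of overlapping frames, and the ribosome must slip forward by 1 base at the end of the first frame to make full-length antizyme. The sites are shown because the RPF counts of both genes span them. They were read 5′ to 3′ from GRCm39 (Oaz1, chr10:80664114-80664143; Oaz2, chr9:65593539-65593568, both + strand and within the coding sequence), with the stop codon of the first frame in capitals.
Oaz1: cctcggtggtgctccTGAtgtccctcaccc
Oaz2: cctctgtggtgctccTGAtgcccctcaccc
The annotated coding sequences skip the first base of that stop codon (position 80664129 of chromosome 10 for Oaz1 and 65593554 of chromosome 9 for Oaz2). Of the 197 Oaz1 codons in which RPFs were counted, 149 (75.6%) lay after the slip, and of the 159 Oaz2 codons 147 (92.5%). The counts are sums over both frames, so they do not give the frameshift rate itself.

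Amd1 carries a short upstream reading frame through which polyamines are known to restrain its translation. It is shown because the Amd1 coding sequence lost most RPFs relative to RNA in a pair of mice described below. The frame is 6 codons long before its stop codon and lies in the 5′ leader (GRCm39, chr10:40178151-40178171, − strand), and capitals mark its start and stop codons. The leader of Amd2, a near-identical gene on the same chromosome (chr10:35587856-35587876, − strand), holds the same letters.
Amd1: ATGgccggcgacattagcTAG
Amd2: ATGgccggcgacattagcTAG
Of the 973 windows of 30 bases in the Amd2 coding sequence, 943 (96.9%) also occur in that of Amd1, so reads could be assigned to either gene. The files gave Amd1 only 2.94% to 8.54% of the RPFs of the pair but 65.6% to 72.7% of their RNA. Values for the sum of Amd1 and Amd2 are therefore given beside those of Amd1, a choice made after seeing the data.

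In WT livers of day 4 the members differed widely in RPF level per kb of counted coding sequence, which was computed for 9 of the 10 (not Amd1). Oaz1 stood highest at 131 ± 10.6 CPM per kb (mean ± SD, n = 3), followed by Srm at 38 ± 7.25 and Sat1 at 37.8 ± 2.32, which did not differ beyond their spread. Paox (24.6 ± 0.834), Azin1 (20.7 ± 1.35), Odc1 (19.8 ± 6.98) and Oaz2 (13.2 ± 0.595) came next. The Odc1 mice ranged from 13.1 to 27.0, which spanned the means of the other 3, so Odc1 could not be ordered among them. Sms lay lower at 6.48 ± 0.639, and Smox had 0.838 ± 0.0411 CPM per kb, with 3 to 29 RPFs in any library. Smox is thus close to the limit of what these libraries could measure, and it passed the filter on low counts in only some comparisons.

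**Figure D1:**
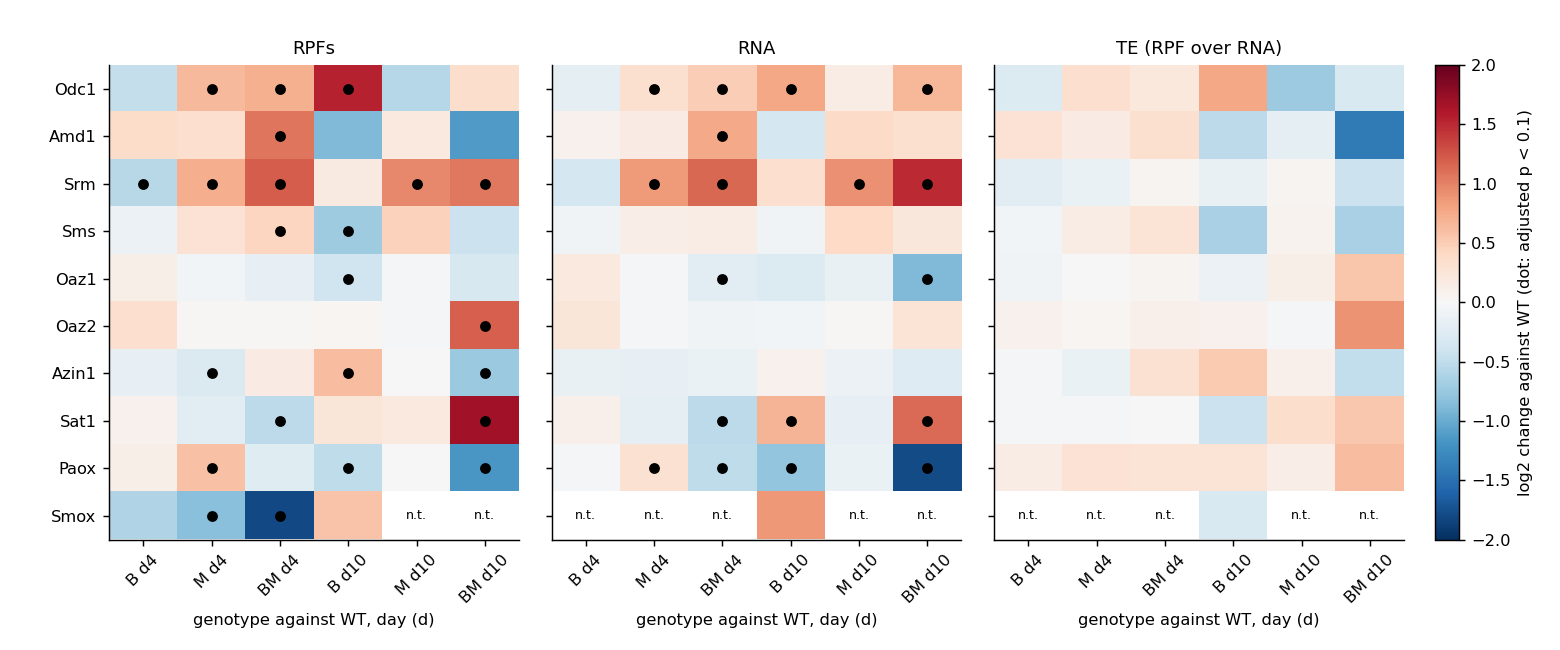
Log2 change of each of the 10 genes against WT (rows) for B, M and BM at day 4 and day 10 (columns), in RPFs, RNA and TE. The colour scale runs from −2 to 2, a dot marks an adjusted p under 0.1 and n.t. marks a gene not tested for low counts. Srm is called higher in M and BM at both days, and none of the 10 genes is called in TE.

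The number of the 10 genes called is given beside the share of all genes called in the same comparison. In RPFs at day 4, 1 of 10 was called in B (down), against 12.5% of all genes tested in either direction, 5 of 10 in M (3 up and 2 down, against 33.3%) and 6 of 10 in BM (4 up and 2 down, against 50.9%). At day 10, 5 of 10 were called in B (2 up and 3 down, against 25.2%), 1 of 9 in M (up, against 19.4%) and 5 of 9 in BM (3 up and 2 down, against 46.8%). Most of these counts are near the share of all genes. The 5 calls in M at day 4 fell to 2 to 4 when any single mouse was left out (to 2 without WT mouse 2 or M mouse 3), while the share of all genes was 24.7% to 32.2%. They fell to 2 with DESeq2 (26.7% of all genes) and with all 24 mice in 1 fit (19.9%). The 6 calls in BM at day 4 were 2 with all 24 mice in 1 fit (38.4%). The 5 calls in B at day 10 fell to as few as 1 when a single mouse (WT mouse 3) was left out (14.1% of all genes), and to 2 without B mouse 2 (15.1%). DESeq2 called 4 members there (21.1%). The median log2 change of the members in RPFs lay between −0.32 (BM, day 10) and 0.15 (M, day 4), while that of all genes was between −0.01 and 0.03.

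RNA gave a similar tally. At day 4 no member of 9 was called in B by edgeR or by DESeq2 (background 8.14%, with Srm at an unadjusted p under 0.05), 3 of 9 in M were higher (23.7%), and 6 of 9 in BM were called, 3 up and 3 down (41.9%). At day 10, 3 of 10 in B (2 up and 1 down, 15.6%), 1 of 9 in M (up, 15.7%) and 5 of 9 in BM (3 up and 2 down, 45.7%) were called. The genes called are described in turn below and drawn in the colour map of changes. They included Srm, Odc1 and Amd1 on the side of synthesis and Paox and Sat1 on the side of breakdown.

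Srm, the spermidine synthase, was higher in M and BM at both days. Its RPFs at day 4 were 34.2, 24.2 and 34.6 CPM in WT, 50.2, 46.7 and 53.4 CPM in M and 83.8, 59.7 and 68.9 CPM in BM, and no M or BM mouse overlapped the WT mice. The change was 1.65-fold in M (log2 change 0.72 ± 0.13, adjusted p = 0.0033) and 2.31-fold in BM (log2 change 1.21 ± 0.15, adjusted p = 7.6e-05). In B, with 18, 20.7 and 25.0 CPM, Srm was lower instead (log2 change -0.56 ± 0.16, adjusted p = 0.053), although this call was lost without WT mouse 1 or 3 or B mouse 1 or 2 (adjusted p 0.14 to 0.19). Srm RNA rose alike, from 16.3, 16.5 and 15.6 CPM in WT to 27.4, 30.4 and 29.8 CPM in M (log2 change 0.86 ± 0.13, adjusted p = 3.9e-04) and 37.7, 35.5 and 33.8 CPM in BM (log2 change 1.15 ± 0.12, adjusted p = 7.0e-06).

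The Srm difference was also present at day 10. RPFs were 28.8, 36.6 and 20.9 CPM in WT, 34.4, 27.9 and 36.8 CPM in B, 66.5, 56.9 and 45.5 CPM in M and 65.7, 61.9 and 53.8 CPM in BM. All M and BM mice lay above all WT mice, and 1 B mouse did. The change was called in M (log2 change 0.96 ± 0.21, adjusted p = 0.022) and in BM (log2 change 1.06 ± 0.21, adjusted p = 0.0079) and not in B (log2 change 0.18, adjusted p = 0.56). Srm RNA in BM reached 39.4, 47.0 and 49.9 CPM against 16.8, 19.8 and 11.3 CPM in WT (log2 change 1.49 ± 0.21, adjusted p = 9.0e-04), and its RNA was also called in M (log2 change 0.91 ± 0.21, adjusted p = 0.019). Without BM mouse 1 the BM changes were 0.99 in RPFs and 1.57 in RNA, both still called.

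**Figure D2:**
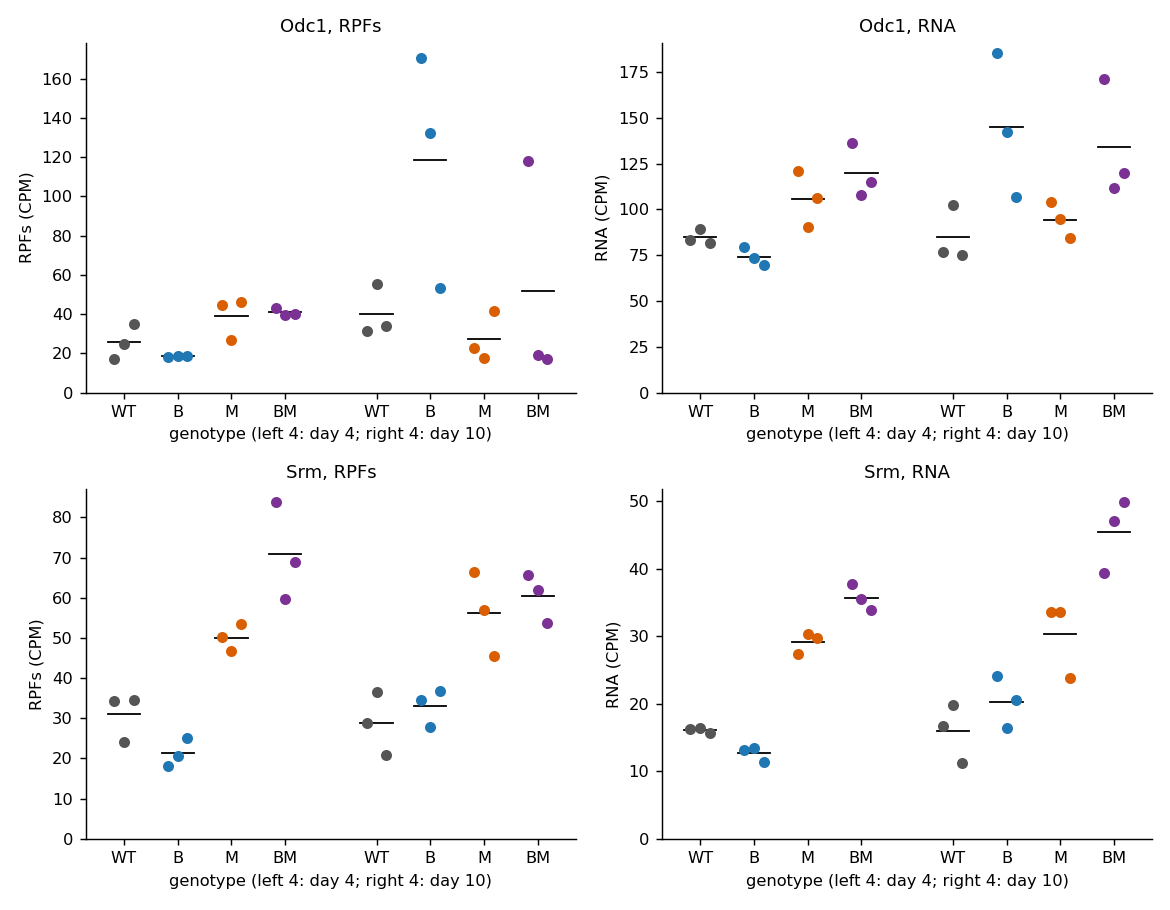
RPF and RNA levels (CPM) of Odc1 and Srm in each of the 24 mice, by genotype and day; each point is 1 mouse, in the order 1 to 3 from left to right, and the bar is the group mean. Srm separates M and BM from WT at both days, whereas Odc1 RPFs range from 17.2 to 118 CPM among the BM mice of day 10.

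Odc1, the first enzyme of the pathway, was called higher in M and BM at day 4 and in B at day 10 in RPFs. The difference of its effect between the days was not called in RPFs or RNA for M (adjusted p = 0.32 and 0.84) or BM (adjusted p = 0.79 and 0.68). It was not tested for B. At day 4 its RPFs were 16.9, 24.9 and 34.9 CPM in WT, 18.3, 18.5 and 18.5 CPM in B, 44.8, 26.6 and 46.1 CPM in M and 43.0, 39.4 and 40.2 CPM in BM. BM lay wholly above WT (log2 change 0.71 ± 0.19, adjusted p = 0.012), a call lost in a single fit over all 24 mice (adjusted p = 0.37), while M mouse 2 fell inside the WT range. The call in M (log2 change 0.65 ± 0.26, adjusted p = 0.0969) was lost without WT mouse 1 or 2 or M mouse 1 or 3 (adjusted p 0.19 to 0.29) and with DESeq2 (adjusted p = 0.28). In B the RPFs were not called (log2 change -0.48, adjusted p = 0.21), but they were without WT mouse 1 (log2 change -0.72 ± 0.15, adjusted p = 0.026).

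Odc1 RNA at day 4 was 83.3, 89.6 and 81.8 CPM in WT, 121, 90.5 and 106 CPM in M and 136, 108 and 115 CPM in BM. It was higher in BM (log2 change 0.50 ± 0.10, adjusted p = 0.0019) and, more weakly, in M (log2 change 0.32 ± 0.11, adjusted p = 0.065). The M call did not survive without WT mouse 1 or 3 or M mouse 1 or 3 (adjusted p 0.12 to 0.3).

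At day 10 the highest Odc1 RPFs were in B livers. They were 31.3, 55.5 and 33.9 CPM in WT and 171, 132 and 53.1 CPM in B, where mice 1 and 2 stood far above WT and mouse 3 lay within the WT range. The change in B was 2.91-fold (log2 change 1.54 ± 0.38, adjusted p = 0.023) and was lost without WT mouse 3 (log2 change 1.43 ± 0.46, adjusted p = 0.11). Odc1 RNA in B was 185, 142 and 107 CPM against 76.6, 103 and 75.4 CPM in WT (log2 change 0.77 ± 0.20, adjusted p = 0.029), a call that did not hold without WT mouse 1 (adjusted p = 0.13) or WT mouse 3 (adjusted p = 0.15). All 3 B mice were above all WT mice in RNA.

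In M at day 10, Odc1 RPFs were 22.8, 17.4 and 41.5 CPM and not called (log2 change -0.57, adjusted p = 0.29), with mice 1 and 2 below all WT mice and mouse 3 inside their range. Without M mouse 3 the decrease was called (log2 change -1.0 ± 0.24, adjusted p = 0.022). M RNA, at 104, 94.8 and 84.4 CPM, overlapped WT (76.6, 103 and 75.4 CPM). Log2 TE of Odc1 in M was -2.19, -2.45 and -1.03, so the mice that differed in RPFs differed in TE as well.

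BM at day 10 split. Odc1 RPFs were 118, 19.1 and 17.2 CPM, so that mouse 1 lay above and mice 2 and 3 below all WT mice, whereas RNA, at 171, 111 and 120 CPM, was above all WT mice in each of them. Over the 3 mice the RPF change was not called (log2 change 0.34 ± 0.70, adjusted p = 0.72), and the RNA was higher (log2 change 0.66 ± 0.20, adjusted p = 0.033), a call lost without WT mouse 1 (adjusted p = 0.12) or WT mouse 3 (adjusted p = 0.13). Without BM mouse 1, RPFs were 2.23-fold lower (log2 change -1.16 ± 0.23, adjusted p = 0.0012) while RNA stayed higher (log2 change 0.43 ± 0.15, adjusted p = 0.029). With the background at 66.3% of genes in RPFs and 57.1% in RNA in those fits, a call by itself was common.

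The spread of Odc1 between mice of a group lay in its RPFs more than in its RNA. The pooled SD of its log2 RPF level between mice of a group was 0.732, larger than in 97.6% of 12000 genes, although each library held 184 to 2304 Odc1 RPFs. The SD of its RNA was 0.234, larger than in 47.5% of 12040 genes, and that of its log2 TE was 0.591, larger than in 94.6% of 11279 genes. Srm, in contrast, had an RPF SD of 0.253 (53% of genes smaller) and Oaz1 of 0.169 (25.7%). The Odc1 SD without BM mouse 1 of day 10 was 0.499 in RPFs (larger than in 91.2% of genes), 0.210 in RNA (45.8%) and 0.413 in TE (82.3%). These values are descriptions, and no test of the spread was made.

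Amd1, whose product commits S-adenosylmethionine to polyamine synthesis, rose in BM at day 4. Its own RPFs were 1.01, 1.09 and 1.36 CPM in WT and 1.83, 2.23 and 3.11 CPM in BM (log2 change 1.07 ± 0.30, adjusted p = 0.014), a call lost with all 24 mice in 1 fit (adjusted p = 0.11). Summed with Amd2, RPFs were 23.1, 21.6 and 22.2 CPM in WT, 23.3, 19.5 and 23.3 CPM in M and 34.8, 31.6 and 40.9 CPM in BM, with BM above every other mouse of day 4. The sum rose 1.63-fold in BM (log2 change 0.70 ± 0.11, adjusted p = 4.2e-04) and its RNA 1.67-fold (log2 change 0.74 ± 0.11, adjusted p = 9.3e-05). In M the sum hardly differed from WT (RPF log2 change 0.01 ± 0.10, adjusted p = 0.94).

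At day 10 the sum of Amd1 and Amd2 was low in B and in BM mice 2 and 3. RPFs were 24.5, 13.7 and 24.9 CPM in WT, 13.3, 13.6 and 13.5 CPM in B, 22.3, 15.9 and 32.8 CPM in M and 22.0, 5.28 and 6.11 CPM in BM. B lay below every WT mouse, though close to WT mouse 2, and was called lower (log2 change -0.66 ± 0.21, adjusted p = 0.062), which did not extend to its RNA (log2 change -0.31 ± 0.17, adjusted p = 0.29). Amd1 alone was not called in RPFs in B (log2 change -0.88 ± 0.40, adjusted p = 0.16). BM mice 2 and 3 had the lowest values of all 24 mice, and BM mouse 1 lay within the WT range. Over all BM mice the change was not called (log2 change -0.92 ± 0.53, adjusted p = 0.21), and without mouse 1 it was 3.71-fold lower (log2 change -1.89 ± 0.27, adjusted p = 1.2e-04), although RNA was then higher (log2 change 0.37 ± 0.15, adjusted p = 0.058). Amd1 alone was not called in BM at day 10 (log2 change -1.13 ± 0.65, adjusted p = 0.21) and was without mouse 1 (log2 change -2.37 ± 0.61, adjusted p = 0.0064). The latter fit rests on 2 and 4 Amd1 RPFs in BM mice 2 and 3.

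Sms, the spermine synthase, varied less. Its RPFs at day 4 were 5.79, 6.92 and 6.90 CPM in WT and 8.80, 7.40 and 9.66 CPM in BM, where all BM mice were higher (log2 change 0.43 ± 0.16, adjusted p = 0.048); the call was lost without WT mouse 1 or BM mouse 3 (adjusted p = 0.16 each) and with DESeq2 (adjusted p = 0.12). At day 10 they were 4.63, 7.47 and 6.49 CPM in WT and 3.11, 3.23 and 4.96 CPM in B (log2 change -0.72 ± 0.26, adjusted p = 0.094), with B mouse 3 inside the WT range. That call was lost without WT mouse 2 or 3 or B mouse 1 or 2 (adjusted p 0.22 to 0.25). Sms RNA was not called against WT in any genotype.

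Of the antizymes, Oaz1 was the more abundant. At day 4 its RPFs were 78.7, 82.8 and 70.5 CPM in WT, 79.2, 79.5 and 95.8 CPM in B, 68.8, 80.8 and 69.3 CPM in M and 74.3, 68.3 and 61.9 CPM in BM, and no genotype was called. At day 10 they were 70.9, 69.5 and 76.1 CPM in WT and 58.1, 50.2 and 57.7 CPM in B, below every WT mouse (log2 change -0.40 ± 0.11, adjusted p = 0.032), a call lost without WT mouse 3 (adjusted p = 0.12) or B mouse 2 (adjusted p = 0.13). In BM at day 10, Oaz1 RNA fell to 92.2, 95.2 and 96.9 CPM from 183, 155 and 182 CPM in WT (log2 change -0.88 ± 0.12, adjusted p = 9.7e-04), a clear separation of the groups that was -0.86 on the log2 scale without mouse 1. RPFs there were 43.9, 65.5 and 65.8 CPM, also below all WT mice, but were not called (log2 change -0.32, adjusted p = 0.21). A small decrease of Oaz1 RNA in BM at day 4 (log2 change -0.22 ± 0.09, adjusted p = 0.074) was lost without WT mouse 1 or 2 or any 1 of the BM mice, with DESeq2 (adjusted p = 0.14) and with the RNA of the counted transcript (adjusted p = 0.21).

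Oaz2 was called against WT only in the RPFs of BM at day 10. Its RPFs were 6.65, 6.55 and 4.69 CPM in WT, 5.12, 6.81 and 5.85 CPM in M and 8.94, 15.1 and 17.4 CPM in BM at day 10, and each BM mouse lay above all WT and M mice of that day. The rise was 2.28-fold (log2 change 1.19 ± 0.29, adjusted p = 0.016), and 2.68-fold without BM mouse 1. Oaz2 RNA, 25.5, 22.1 and 26.8 CPM in WT and 25.8, 32.6 and 32.2 CPM in BM, was not called (log2 change 0.28, adjusted p = 0.19), and was without BM mouse 1 (log2 change 0.38 ± 0.14, adjusted p = 0.049).

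The antizyme inhibitor Azin1, an inactive relative of ornithine decarboxylase, moved in opposite directions in B and BM at day 10. RPFs were 21.5, 31.5 and 25.1 CPM in WT, 41.0, 41.2 and 38.3 CPM in B and 20.1, 12.4 and 14.4 CPM in BM, so that B lay above and BM below every WT mouse. Both were called (B, log2 change 0.61 ± 0.14, adjusted p = 0.017; BM, log2 change -0.74 ± 0.23, adjusted p = 0.038), the latter lost without WT mouse 2 (adjusted p = 0.12) or BM mouse 2 (adjusted p = 0.12). Without BM mouse 1 the decrease was -0.97 on the log2 scale. Azin1 RNA differed little, with 136, 186 and 171 CPM in WT, 149, 188 and 182 CPM in B and 117, 155 and 142 CPM in BM, and was not called in any comparison. In M at day 4, RPFs of 22.5, 19.3 and 20.2 CPM were slightly below the 24.1, 27.4 and 26.2 CPM of WT (log2 change -0.29 ± 0.10, adjusted p = 0.058), which was lost without WT mouse 2 or 3 or M mouse 2 or 3 (adjusted p 0.11 to 0.16) and with DESeq2 (adjusted p = 0.12).

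The ratio of Odc1 RPFs to the summed RPFs of both antizymes put enzyme and inhibitor of a liver on 1 scale, and is given as a description with no test. At day 4 it was 0.199, 0.280 and 0.454 in WT, 0.211, 0.212 and 0.176 in B, 0.597, 0.303 and 0.616 in M, and 0.530, 0.534 and 0.589 in BM. All BM mice were above all WT mice, the B mice lay at or near the lowest WT value, and M mouse 2 lay inside the WT range. At day 10 it was 0.404, 0.731 and 0.420 in WT, 2.59, 2.35 and 0.850 in B, 0.296, 0.205 and 0.607 in M, and 2.24, 0.237 and 0.207 in BM. Odc1 RPFs thus outnumbered those of the antizymes only in B mice 1 and 2 and BM mouse 1 of day 10, and BM mice 2 and 3 lay below all WT mice of that day.

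**Figure D3:**
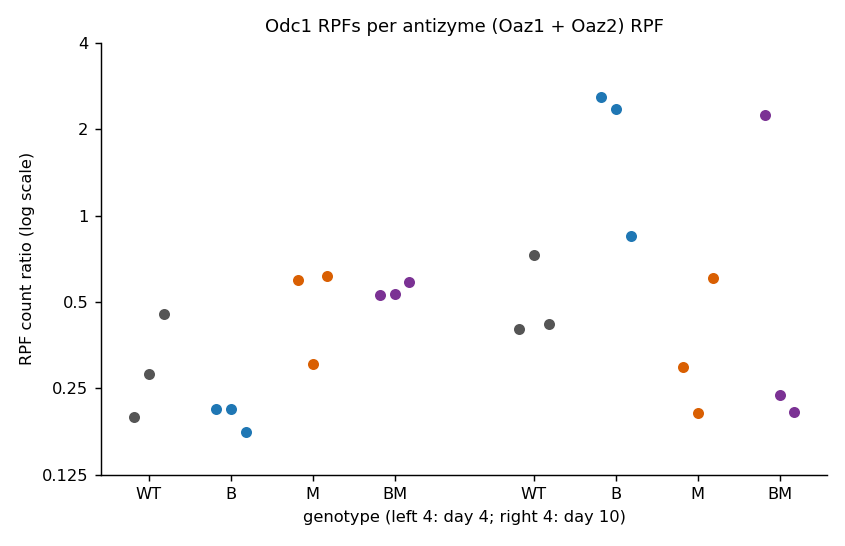
Odc1 RPF counts divided by the summed RPF counts of Oaz1 and Oaz2 in each of the 24 mice, on a log axis, by genotype and day; each point is 1 mouse, in the order 1 to 3 from left to right. The points run from 0.176 (B, day 4) to 2.59 (B, day 10), and the BM mice of day 10 hold both a value of 2.24 and values of 0.237 and 0.207.

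Sat1, which acetylates spermidine and spermine for export or oxidation, fell in BM at day 4 and rose at day 10. RPFs at day 4 were 15.9, 17 and 15.0 CPM in WT, 11.8, 17.2 and 10.8 CPM in M and 12.2, 9.70 and 10.8 CPM in BM, which lay below all WT mice (log2 change -0.53 ± 0.12, adjusted p = 0.0054), a call lost with all 24 mice in 1 fit (adjusted p = 0.12). RNA went the same way (log2 change -0.53 ± 0.14, adjusted p = 0.01). At day 10 RPFs were 11.3, 13.9 and 11.3 CPM in WT and 19.4, 44.9 and 53.4 CPM in BM, a 3.19-fold rise (log2 change 1.67 ± 0.35, adjusted p = 0.0094) that was 4.01-fold without mouse 1 (log2 change 2.00 ± 0.15, adjusted p = 1.3e-06). All BM mice were above all WT mice, and mouse 1 was the lowest of them. RNA was 23.4, 24.3 and 22.8 CPM in WT and 58.0, 49.1 and 47.8 CPM in BM (log2 change 1.13 ± 0.14, adjusted p = 5.1e-04), with mouse 1 the highest, and the log2 change without it was 1.03. The summed RNA of the Kupffer cell markers given above was likewise lower in BM than in WT at day 4 and higher at day 10, and that of 5 leukocyte markers was 20.6 to 34.1 CPM in WT and 11.1 to 13.4 CPM in BM at day 4, and 21.7 to 29.2 CPM and 17.4 to 26.0 CPM at day 10. In RPFs the Kupffer sum was 482 to 550 CPM in WT and 279 to 291 CPM in BM at day 4, and 363 to 524 CPM and 607 to 660 CPM at day 10. The leukocyte sum in RPFs was 30.6 to 37.4 CPM and 16.2 to 22.2 CPM at day 4, and 27.6 to 44.8 CPM and 47.0 to 48.2 CPM at day 10. In RPFs every BM mouse was below every WT mouse in both sums at day 4 and above at day 10. Their part in the Sat1 change was not tested. In B at day 10, Sat1 RNA of 42.4, 37.2 and 32.9 CPM was also above WT (log2 change 0.67 ± 0.14, adjusted p = 0.011), while its RPFs of 12.1, 12.6 and 18.9 CPM overlapped WT and were not called (adjusted p = 0.44). The leukocyte sum in B at day 10 was 29.9 to 35.9 CPM in RNA, above all WT mice, and 41.5 to 64.4 CPM in RPFs. Its part in this change was not tested.

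Paox, which oxidises acetylated polyamines, was higher with MYC alone at day 4 and lower with β-catenin activation at day 10. RPFs at day 4 were 18.6, 17.4 and 18.1 CPM in WT, 26.9, 26.9 and 25.8 CPM in M (log2 change 0.59 ± 0.09, adjusted p = 0.0014) and 15.8, 15.9 and 13.4 CPM in BM, which lay below all WT mice but was not called (adjusted p = 0.11). At day 10 they were 22.6, 21.2 and 22.6 CPM in WT, 16.6, 12.8 and 17.5 CPM in B and 8.36, 12.6 and 8.84 CPM in BM, without overlap between WT and either group. Both were called (B, log2 change -0.51 ± 0.14, adjusted p = 0.04; BM, log2 change -1.17 ± 0.20, adjusted p = 0.0043), the B call being lost without WT mouse 1 or 3 or B mouse 2 (adjusted p 0.101 to 0.12).

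Paox RNA showed the larger fall in BM at day 10, from 55.3, 47.3 and 47.1 CPM in WT to 15.7, 15.6 and 11.9 CPM, a 3.46-fold decrease (log2 change -1.79 ± 0.16, adjusted p = 1.1e-04). Without BM mouse 1 the log2 change of Paox was -1.86 in RNA and -1.05 in RPFs. It also fell in BM at day 4 (log2 change -0.50 ± 0.12, adjusted p = 0.0039) and in B at day 10 (log2 change -0.78 ± 0.20, adjusted p = 0.028). The summed RNA of 5 stellate cell markers was also lower, at 472 to 547 CPM in WT, 193 to 231 CPM in BM and 234 to 284 CPM in B at day 10. At day 4 it was 423 to 451 CPM in WT and 223 to 280 CPM in BM. In M it was lower than in WT too, at 320 to 386 CPM at day 4 and 350 to 377 CPM at day 10. Paox RNA in M was not lower at day 4 and not called at day 10 (log2 change -0.13, adjusted p = 0.62). The part of the stellate cell markers in the Paox change was not tested. The Paox calls in BM at day 4 and in B at day 10 were lost with the RNA of the counted transcript (adjusted p = 0.25 and 0.13), and the latter also without WT mouse 1 (adjusted p = 0.11) or B mouse 2 (adjusted p = 0.12). In M at day 4 Paox RNA was slightly higher (log2 change 0.30 ± 0.10, adjusted p = 0.062), a call lost without WT mouse 2 or 3 or M mouse 1 or 3 (adjusted p 0.14 to 0.18) and with DESeq2 (adjusted p = 0.22).

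Smox, the spermine oxidase, rested on few counts. Its RPF counts at day 4 were 15, 11 and 13 in WT, 7, 11 and 9 in M and 3, 10 and 5 in BM, and the BM mice were below all WT mice (log2 change -1.80 ± 0.41, adjusted p = 0.0045). The M call (log2 change -0.83 ± 0.30, adjusted p = 0.067) was lost when any 1 of the 6 mice was left out and with DESeq2 (adjusted p = 0.32). In both comparisons Smox passed the filter on low counts only through the WT mice, where it was higher, so the filter favoured a decrease. The tallies of calls given above include Smox. Its RNA passed the filter against WT only in B at day 10, where it was not called.

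**Figure D4:**
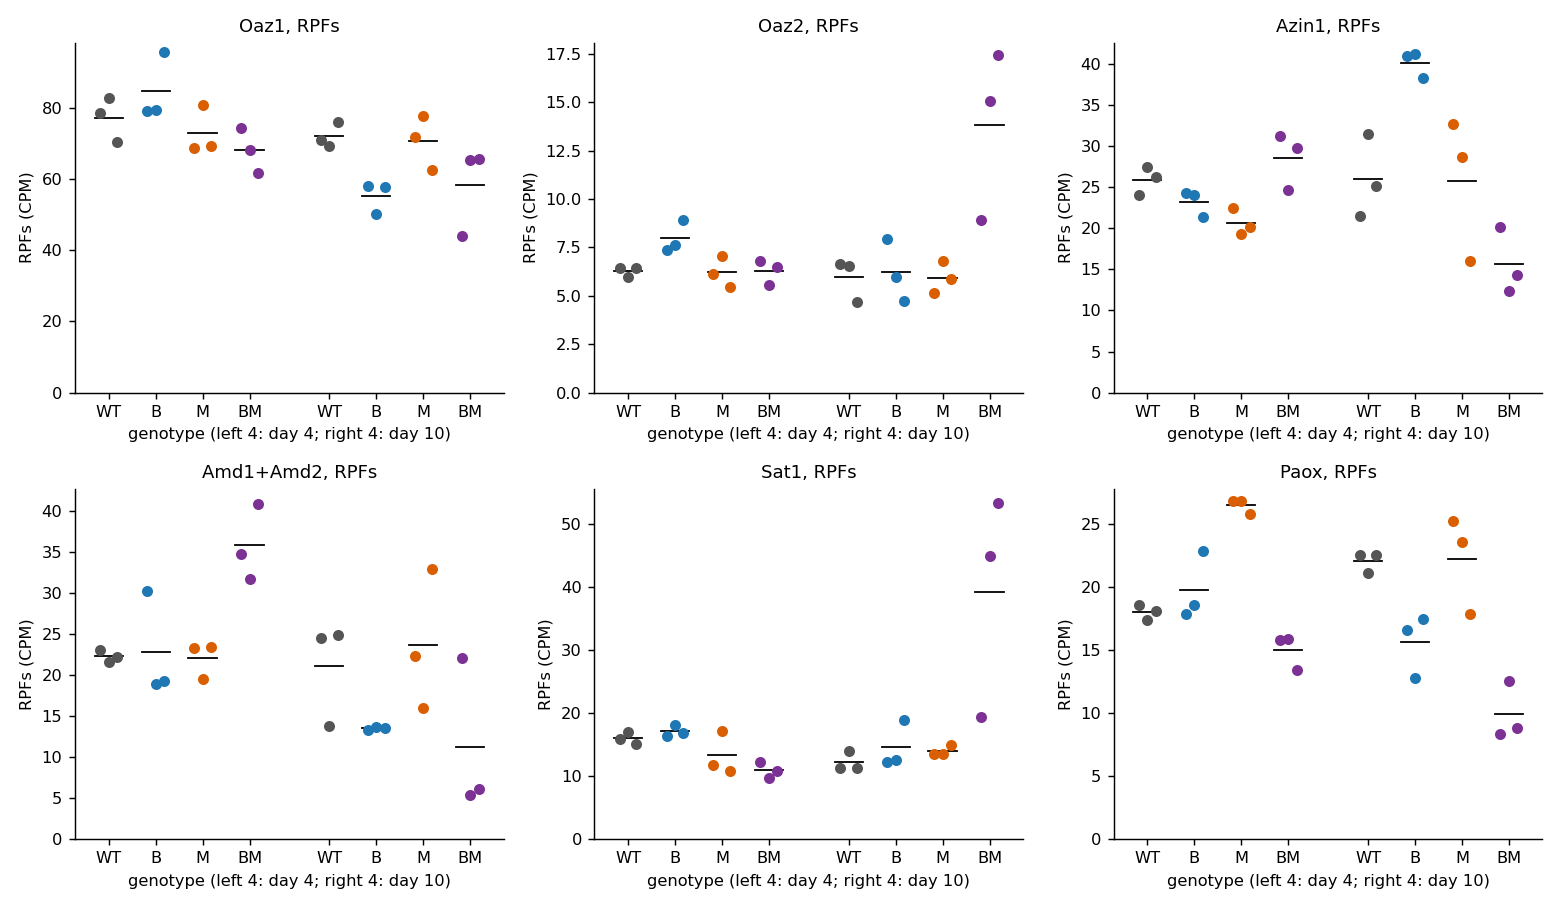
RPF levels (CPM) of Oaz1, Oaz2, Azin1, the sum of Amd1 and Amd2, Sat1 and Paox in each of the 24 mice, by genotype and day; each point is 1 mouse, in the order 1 to 3 from left to right, and the bar is the group mean. At day 10, BM mice 2 and 3 hold the lowest Amd1 and Amd2 RPFs and the highest Sat1 and Oaz2 RPFs of the 24 mice.

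No member was called in TE in any of the 6 comparisons with WT, by edgeR on the groups compared or by DESeq2. Few genes were called at all: the share was 0.0488% (B), 0.98% (M) and 2.29% (BM) at day 4, and 0.047% (B), 0% (M) and 0.259% (BM) at day 10. At an unadjusted p under 0.05 there were 1 of 9 members in M at day 4 (Paox), 1 of 10 in B at day 10 (Azin1), 5 of 9 in BM at day 10 (Amd1, Oaz1, Oaz2, Paox and Sms) and 0 in the other 3 comparisons. The RPF and RNA libraries of a mouse come from the same lysate. With each mouse as a block, TE was called higher in B at day 10 for Odc1 (log2 change 0.69 ± 0.17, adjusted p = 0.031) and Azin1 (log2 change 0.54 ± 0.13, adjusted p = 0.029), against 2.65% of all genes. In BM at day 10 Oaz2 was called in that fit (log2 change 0.86 ± 0.25, adjusted p = 0.09997), against 5.18%. With all 24 mice in 1 fit, Oaz1 (log2 change 0.56 ± 0.19, adjusted p = 0.078) and Oaz2 (log2 change 0.91 ± 0.26, adjusted p = 0.038) were called higher in BM at day 10, against 7% of all genes.

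In BM at day 10 the TE of several members differed between mouse 1 and the other two. Log2 TE of Odc1 was -1.29, -0.88 and -1.15 in WT and -0.53, -2.54 and -2.80 in BM. That of the sum of Amd1 and Amd2 was -2.27, -2.57 and -2.11 in WT and -2.37, -4.70 and -4.40 in BM, and that of Azin1 was -2.66, -2.56 and -2.77 and -2.54, -3.64 and -3.30. For these 3, mice 2 and 3 lay below all WT mice and mouse 1 within or above their range. Log2 TE of Sat1 was -1.05, -0.80 and -1.02 in WT and -1.58, -0.13 and 0.16 in BM, with mouse 1 below and mice 2 and 3 above all WT mice. Log2 TE of Oaz1 was -1.37, -1.15 and -1.26 in WT and -1.07, -0.54 and -0.56 in BM, that of Oaz2 -1.94, -1.76 and -2.51 and -1.53, -1.11 and -0.89, and that of Paox -1.29, -1.16 and -1.06 and -0.91, -0.31 and -0.43. In these 3 genes each BM mouse lay above all WT mice, mouse 1 by the least. Srm, with 0.78, 0.89 and 0.89 in WT and 0.74, 0.40 and 0.11 in BM, and Sms, with -1.30, -0.85 and -1.08 and -1.83, -1.43 and -1.86, were below all WT mice in each BM mouse, mouse 1 included.

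Without BM mouse 1, 7 of the 9 members tested were called in TE, against 22% of all genes. Higher and lower TE here are relative to other genes, because the scaling hides any change shared by all genes. Odc1 (log2 change -1.59 ± 0.30, adjusted p = 0.0039), Amd1 (log2 change -2.73 ± 0.58, adjusted p = 0.0074) and Azin1 (log2 change -0.81 ± 0.23, adjusted p = 0.035) were lower, which are respectively the first enzyme, the aminopropyl donor's enzyme and the inhibitor of antizyme. Oaz1 (log2 change 0.72 ± 0.15, adjusted p = 0.0074), Oaz2 (log2 change 1.04 ± 0.23, adjusted p = 0.0097), Sat1 (log2 change 0.97 ± 0.19, adjusted p = 0.0047) and Paox (log2 change 0.81 ± 0.24, adjusted p = 0.04) were higher, which are the antizymes and a pair of the breakdown enzymes; Smox was not tested. Amd1 alone had 2 and 4 RPFs in BM mice 2 and 3, against 19, 7 and 12 in WT. It passed the filter on low counts only through WT mice, so the filter favoured a decrease. Amd1 summed with Amd2 was 4.80-fold lower (log2 change -2.26 ± 0.32, adjusted p = 6.8e-04). Srm (adjusted p = 0.22) and Sms (adjusted p = 0.23) were not called. This fit compares 2 BM mice with 3 WT mice and was chosen after mouse 1 had been seen to stand apart, and leaving out any other mouse of the comparison called no member in TE.

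**Figure D5:**
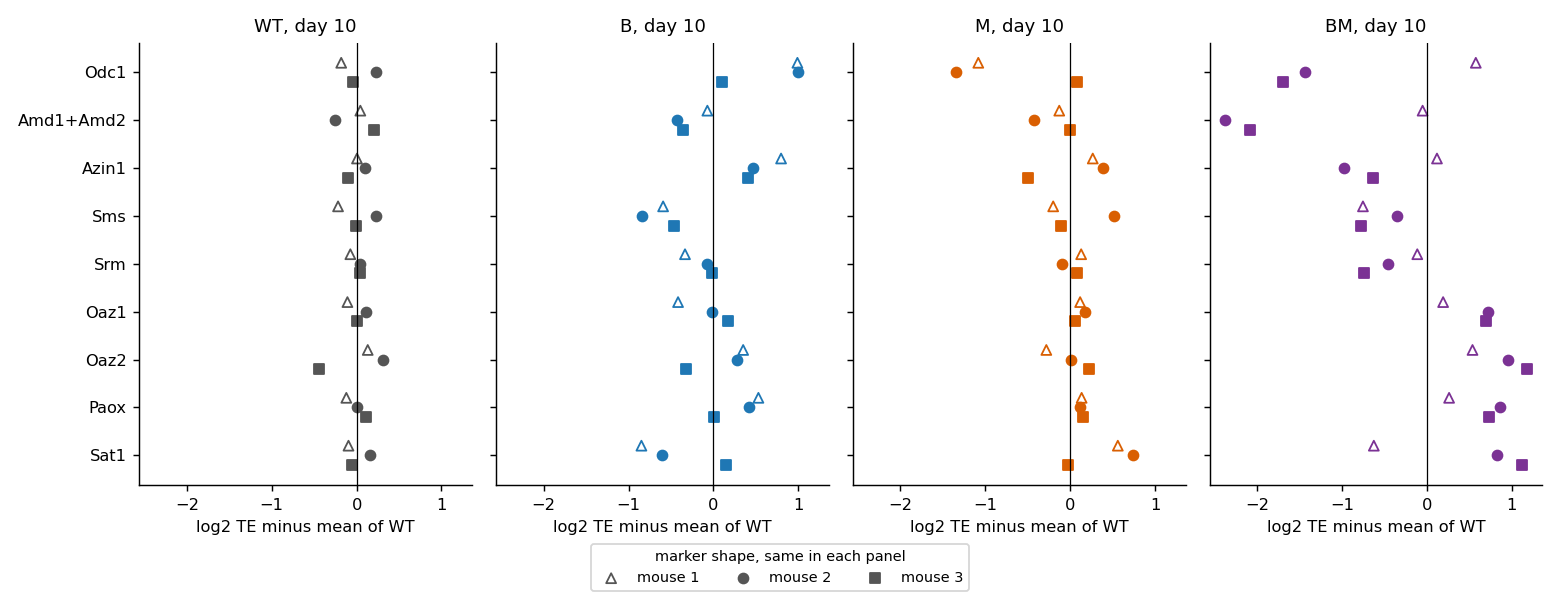
Log2 TE of 9 entries (8 members, and Amd1 summed with Amd2) at day 10 minus the mean of the 3 WT mice, 1 panel per genotype; marker shape gives the mouse. In BM, mice 2 and 3 lie on the same side of 0 for each entry, and mouse 1 lies on the opposite side for Odc1, Azin1 and Sat1.

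The comparison of BM with M at day 4 asks what the β-catenin allele adds to MYC. In RPFs, 3 of 9 members were called, 2 up and 1 down (38.2%): Srm (log2 change 0.48 ± 0.11, adjusted p = 0.012) and Azin1 (log2 change 0.45 ± 0.11, adjusted p = 0.015) were higher and Paox (log2 change -0.83 ± 0.10, adjusted p = 3.3e-04) lower in BM. In RNA, 3 of 9 were called, 2 up and 1 down (30.5%), namely Amd1 (log2 change 0.58 ± 0.11, adjusted p = 0.0014), Srm (log2 change 0.29 ± 0.10, adjusted p = 0.063) and Paox (log2 change -0.80 ± 0.11, adjusted p = 1.2e-04). The Srm RNA call was lost without mouse 1 of either group (adjusted p = 0.21 without that of M and 0.19 without that of BM) and with DESeq2 (adjusted p = 0.22). Amd1 summed with Amd2 was higher in RPFs too (log2 change 0.69 ± 0.12, adjusted p = 0.0026). No member was called in TE (0.0943%) by edgeR or DESeq2, with 1 (Azin1) at an unadjusted p under 0.05, and Azin1 was called with the mouse block (log2 change 0.42 ± 0.11, adjusted p = 0.028) against 2.04% of genes.

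Whether an allele acted differently at day 10 than at day 4 was tested as the difference of its effects. For M, no member of 10 was called in RPFs (1.18%), RNA (1.2%) or TE (0%) by edgeR or DESeq2, with 2 (Odc1 and Paox), 1 (Paox) and 0 at an unadjusted p under 0.05. Without M mouse 3 of day 10, the Odc1 RPF difference was called (log2 change -1.62 ± 0.42, adjusted p = 0.051).

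For BM, 7 of 10 members were called in RPFs, 3 up and 4 down (35.7%). Sat1 had the largest rise (log2 change 2.21 ± 0.41, adjusted p = 0.0023), together with Oaz2 (log2 change 1.17 ± 0.33, adjusted p = 0.022) and the sparse Smox (log2 change 1.83 ± 0.65, adjusted p = 0.056), and Amd1 (log2 change -2.17 ± 0.73, adjusted p = 0.045), Paox (log2 change -0.92 ± 0.22, adjusted p = 0.0095), Azin1 (log2 change -0.90 ± 0.26, adjusted p = 0.026) and Sms (log2 change -0.84 ± 0.28, adjusted p = 0.042) fell. The Amd1 call was lost without WT mouse 1 of day 10 (adjusted p = 0.13) and the value was -3.46 without BM mouse 1 of day 10. Summed with Amd2 the difference was smaller, with all mice (log2 change -1.60 ± 0.59, adjusted p = 0.064) and without that mouse (log2 change -2.61 ± 0.29, adjusted p = 6.4e-06). The Sms call was lost without WT mouse 2 of day 10 (adjusted p = 0.101), and that of Smox without WT mouse 1 or 3 or BM mouse 1 or 3 of day 4, or WT mouse 2 of day 10 (adjusted p 0.102 to 0.13). Odc1 was not called (log2 change -0.34, adjusted p = 0.79), and without BM mouse 1 of day 10 it was (log2 change -1.88 ± 0.34, adjusted p = 4.3e-04).

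In RNA, 3 of 10 members were called for the same difference, 1 up and 2 down (29.9%): Sat1 (log2 change 1.65 ± 0.19, adjusted p = 5.5e-05), Paox (log2 change -1.29 ± 0.19, adjusted p = 3.6e-04) and Oaz1 (log2 change -0.66 ± 0.14, adjusted p = 0.0051). In TE none was called (0.31%) by edgeR or DESeq2, with 4 (Amd1, Azin1, Oaz2 and Sms) at an unadjusted p under 0.05. Without BM mouse 1 of day 10, 6 were called in TE (12.9% of all genes): Odc1 (log2 change -1.81 ± 0.41, adjusted p = 0.0074), Amd1 (log2 change -3.07 ± 0.67, adjusted p = 0.0054) and Azin1 (log2 change -1.12 ± 0.30, adjusted p = 0.021) were lower, and Oaz1 (log2 change 0.64 ± 0.19, adjusted p = 0.037), Oaz2 (log2 change 0.93 ± 0.28, adjusted p = 0.042) and Sat1 (log2 change 0.96 ± 0.26, adjusted p = 0.022) higher. Amd1 rests there on 2 and 4 RPFs in BM mice 2 and 3, and its sum with Amd2 gave a smaller difference (log2 change -2.24 ± 0.36, adjusted p = 4.0e-04).

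A list of 32 further genes of polyamine supply, methionine salvage, hypusination, transport and oxidation was read alongside. In RPFs against WT, 11 of 25 tested were called in M at day 4 (9 up and 2 down, against 33.3% of all genes), 13 of 25 in BM at day 4 (10 up and 3 down, 50.9%), 5 of 25 in M at day 10 (4 up and 1 down, 19.4%) and 15 of 26 in BM at day 10 (13 up and 2 down, 46.8%). In B they were 8 of 25 at day 4 (6 up and 2 down, 12.5%) and 11 of 25 at day 10 (7 up and 4 down, 25.2%). None was called in TE in any of the 9 comparisons.

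Of the precursor supply genes, Mat2a, the S-adenosylmethionine synthase of growing cells, rose in RPFs in M and BM at both days. Its log2 changes were 0.52 (adjusted p = 0.0013) in M and 1.21 (adjusted p = 1.4e-06) in BM at day 4, and 1.45 (adjusted p = 0.0013) and 3.69 (adjusted p = 2.0e-04) at day 10. Mat1a, the hepatocyte form, was lower in BM at day 4 (log2 change -0.73 ± 0.10, adjusted p = 1.2e-04) and higher at day 10 (log2 change 2.20 ± 0.34, adjusted p = 0.0027). Oat, ornithine aminotransferase, rose in B and BM, by a log2 change of 2.44 in B and 1.78 in BM at day 4 and 3.22 and 3.72 at day 10 (adjusted p at most 1.7e-04 in each).

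Of the other genes named by the same rule, Eif5a, the translation factor that carries hypusine made from spermidine, was higher in RPFs in M and BM at both days, by 0.51, 0.57, 0.52 and 1.03 in M and BM at day 4 and M and BM at day 10. Dohh, the second enzyme of hypusine synthesis, rose in BM at day 10 (log2 change 1.16 ± 0.27, adjusted p = 0.013). Among transporters in BM at day 10, with all 3 mice in the fit, Slc22a3 (log2 change 4.67 ± 0.33, adjusted p = 1.2e-04), Slc7a1 (log2 change 2.80 ± 0.35, adjusted p = 0.0014), Slc7a2 (log2 change 1.99 ± 0.39, adjusted p = 0.0069) and Slc3a2 (log2 change 1.15 ± 0.33, adjusted p = 0.028) were higher and the vesicular carrier Slc18b1 was lower (log2 change -2.10 ± 0.43, adjusted p = 0.0083). Slc22a3 is an organic cation transporter, and Slc7a1 and Slc7a2 take up cationic amino acids such as arginine and ornithine.

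Over the 8 group means of log2 RPF CPM, the genes whose pattern was most like that of Odc1 among 12000 were Ccny (Pearson r = 0.956), Flna (0.925), Setd3 (0.924), Rbms2 (0.917) and Ptpdc1 (0.915). None of them is a polyamine gene. These values describe 8 means that share the same libraries, and BM mouse 1 enters the mean of BM at day 10.

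The letters CACGTG, the E-box to which MYC binds, are their own reverse complement and were searched in 300-base RefSeq promoter windows (GRCm38.p6), from 250 bases before to 50 after a start. They occurred in 1 of 11 windows of 9 genes of the family, Amd2 included (a window of Sms), and in 7.15% of all 32851 windows. Srm and Azin1 had no window in that table. The Odc1 window did not hold these letters, and sequence outside the windows was not searched.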

How the data were processed

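Livers of 24 mice each gave an RPF and a cytoplasmic RNA library. Per the labels and the study's methods, the authors trimmed reads with Cutadapt 1.18, removed rRNA and tRNA, aligned RPFs with BBmap to the most abundant GENCODE vM27 (GRCm39) transcript of each gene, removed duplicates by molecular identifier, and deposited the counts of RPFs within each coding sequence, leaving out the first 20 and last 10 codons. The authors aligned RNA with Bowtie2 2.3.5.1 and deposited RSEM 1.3.3 expected counts and TPM per isoform. TPM served here only to give RNA levels and to rank isoforms, and expected counts were summed per gene and rounded (at least 99.92% were whole).

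Each comparison used edgeR 4.0.16 (quasi-likelihood F test, R 4.3.3, limma 3.58.1) on only the groups compared, with TMM scaling within library type, filterByExpr (minimum count 10, minimum total 15) and Benjamini-Hochberg adjustment over all genes; TE was the interaction of library type and genotype. A gene was called at an adjusted p under 0.1. The SE is the log2 change divided by the square root of F. RPF transcripts missing from a library were taken as 0. RPF and RNA libraries of a mouse come from 1 lysate, so a TE fit with the mouse as a block was run as well. DESeq2 1.42.0, other scalings and filters, all 24 mice in 1 fit, the RNA of the counted transcript and leaving out each mouse were the alternatives. Replicates are individual mice. All 10 members were named, and of a list of 32 related genes the 12 with the largest called RPF change in M or BM against WT, of which 2 are not reported here. The members and lists were chosen with earlier results of these data known.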

Additional observations from a re-analysis of the deposited data

Results flagged for a closer look

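The effect of BM against WT differed between day 10 and day 4, by a test of the difference itself, in 7 of 10 members in RPFs (35.7% of all genes tested) and 3 of 10 in RNA (29.9%, about the share of the members). In RPFs, the day 10 minus day 4 difference on the log2 scale was 2.21 for Sat1, 1.83 for Smox, 1.17 for Oaz2, −2.17 for Amd1, −0.92 for Paox, −0.90 for Azin1 and −0.84 for Sms. In RNA it was 1.65 for Sat1, −1.29 for Paox and −0.66 for Oaz1. Sat1 and Paox were called in both measures, in the same direction. The Smox value rests on 3 to 29 RPFs per library and that of Amd1 on 2 to 47, and Amd1 summed with the near-identical Amd2 gave −1.60 (adjusted p = 0.064). The day 10 effect includes BM mouse 1, which stood apart from its group. With that mouse left out, 8 members were called in RPFs and 4 in RNA, against 57.3% and 43.5% of all genes.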

How the results depend on the processing

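The 57 member results called gave 820 values under the alternatives, of which 731 kept the call, 89 lost it and 0 reversed. With all 24 mice in 1 fit, RPF calls among the members went from 1 to 0 in B (share of all genes from 12.5% to 4.81%), from 5 to 2 in M (33.3% to 19.9%) and from 6 to 2 in BM (50.9% to 38.4%) at day 4, RNA calls in M at day 4 from 3 to 1 (23.7% to 14.2%), and TE calls in BM at day 10 from 0 to 2 (0.259% to 7%). DESeq2 called 2 members in RPFs (26.7% of all genes) and 1 in RNA (15.9%) in M at day 4. Leaving out 1 mouse gave 0 to 1 RPF calls in B (6.84% to 11.9% of all genes) and 2 to 4 in M (24.7% to 32.2%) at day 4, 1 to 5 in B (14.1% to 28.7%) and 1 to 2 in M (9.67% to 24.5%) at day 10, and 0 to 1 for the day difference of M (0.0342% to 6.05%). In RNA it gave 1 to 3 in M at day 4 (15% to 22.5%), 1 to 4 in B (8.27% to 18.5%) and 1 to 2 in M (7.6% to 14.7%) at day 10, and 3 to 5 for the day difference of BM (23.2% to 43.5%). In TE it gave 0 to 7 in BM at day 10 (0.0564% to 22%) and 0 to 6 for the day difference of BM (0.161% to 12.9%), the upper values without BM mouse 1. With the mouse as a replicate block, TE calls were 2 in B (2.65% of all genes) and 1 in BM (5.18%) at day 10 and 1 in BM against M (2.04%). Mice of different groups share only a number: deviations of same-numbered mice correlated between −0.18 and 0.20, and a block on that number took RNA calls in BM against M from 3 to 5 (30.5% to 33.5% of all genes). The log2 difference of the ratio of Odc1 to antizyme RPFs at day 4 was −0.56 in B, −0.75 with Oaz2 alone and −0.84 to −0.25 without 1 mouse. In BM it was 0.91, 0.74 with Oaz2 alone and 0.63 to 1.22 without 1 mouse. The cause of these shifts was not tested. Where 10 counts were required in every library, Smox was not tested, and Amd1 was tested in RPFs only in BM against M.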
